A study of Mus musculus with 6 samples.

Results

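Accessible chromatin was examined at 10 imprinted genes that act on fetal growth (Igf2, H19, Dlk1, Meg3, Peg3, Mest, Plagl1, Grb10, Igf2r and Peg10) in mouse nephron progenitor cells, the cells of the outer kidney from which the epithelium of the nephron forms. A region belonged to the set when its midpoint lay in the body of a member gene or within 50 kb of it, and 30 of the 43523 distinct regions in the count table did so. The libraries were ATAC-seq, in which the transposase Tn5 cuts open DNA, so that the number of reads in a region measures its accessibility. CD1 mice at E14.5, in midgestation, and at P0, the day of birth, gave 3 libraries each. Every library came from the pooled kidneys of a single litter, with progenitors picked out on magnetic beads by antibodies to the integrin Itga8. No genotype or treatment differed between the groups. The counts add the maternal and the paternal copy of each gene together, and no library holds a single animal.

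Imprinted genes are expressed mainly from the copy inherited from 1 parent, under the control of stretches of DNA that are methylated in the egg or in the sperm. As a group they are known for setting the growth of the fetus: many paternally expressed members (Igf2, Dlk1, Peg3, Mest, Plagl1) favour or modulate growth, while the maternally expressed H19, Grb10 and Igf2r restrain the insulin-like growth factor (IGF) pathway. The expression of several of them falls in many organs around and after birth, so the stage comparison asks whether their chromatin differed between the midgestation and the newborn kidney.

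Depth in regions ran from 6492996 counts in P0 replicate 2 to 12292629 in P0 replicate 3. Of 10 progenitor genes examined, 6 had an entry in the promoter table and 5 of these carried a region over the start (Six2, Cited1, Sall1, Itga8 and Gdnf), with summed levels of 154 to 161 CPM (read counts relative to the scaled total of the library) at E14.5 and 128 to 166 at P0. Of the markers of other cell types with an entry, a region lay over 2 of 4 stromal starts (58.2 to 69.6 CPM at E14.5 and 46.3 to 60.5 at P0), 1 of 4 endothelial starts (19.8 to 29.6 and 22.7 to 31.2), 0 of 3 immune starts (Ptprc, Cd68 and Laptm5) and 1 of 3 ureteric starts. The ureteric start, that of Wnt11, had 17.2 to 18.98 CPM at E14.5 and 21.5 to 23.3 at P0, without overlap and without passing the test. No marker region was called, and the part of other cell types in any stage difference was not tested. In such bulk libraries, fewer cells with open chromatin and less open chromatin per cell cannot be told apart.

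None of the 30 regions passed an adjusted p of 0.05 in edgeR's quasi-likelihood test, against 4.73% of all regions tested. At an adjusted p under 0.1 edgeR called 1 of the 30, a region inside Grb10, against 8.02% of all regions. In the authors' deposited table none of the 30 regions had an adjusted p-value under 0.1, against 5.34% of all regions. DESeq2's Wald test called 0 of the 30 (6.38% of all regions) and limma-voom also 0 (4.38%). At an unadjusted p under 0.05 the numbers were 5 of 30 in edgeR (16.7%, against 18.7% of all regions), 4 in DESeq2 (17.7% of all regions) and 5 in limma-voom (18.7%). The median log2 fold change of P0 over E14.5 was 0.00 over the 30 regions and 0.01 over all regions, and 14 regions lay above 0 and 16 below. The 3 P0 libraries all lay on the same side of the 3 E14.5 libraries in 5 of the 30 regions, which is 16.7% against 24.2% of all regions. These shares were close to or below the background. For 24 of the 30 regions the 95% interval of the log2 fold change stayed within a 2-fold change in either direction. For the other 6, at H19, Plagl1, Grb10, Peg10 and 2 at Igf2r, the interval reached past it.

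The regions were spread unevenly over the genes. Igf2 had 1 region in its window, which it shared with H19. H19 had 5, Peg3 7, Igf2r 6, Grb10 5, Plagl1 3, Peg10 3 and Mest 1. Dlk1 and Meg3, neighbours on chromosome 12, had 0, and the nearest region in the table lay 58.7 kb from the 5′ end of Dlk1 and 147 kb from that of Meg3. A region lay over a RefSeq 5′ end of 5 members (Peg3, Plagl1, Grb10, Igf2r and Peg10) and over none of the 5′ ends of Igf2, H19, Dlk1, Meg3 and Mest. Counted by 5′ end this was 5 of 17 for the 10 members, 2 of which (H19 and Meg3) are non-coding RNA genes. A region lay over the start of 41.2% of all RefSeq promoters and of 54.1% of those of protein-coding genes. The table holds counts for listed regions only, so the accessibility of a start without a region was not measured here. Pax2, a defining gene of the progenitors, had no region over its start in the same way.

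**Figure D1:**
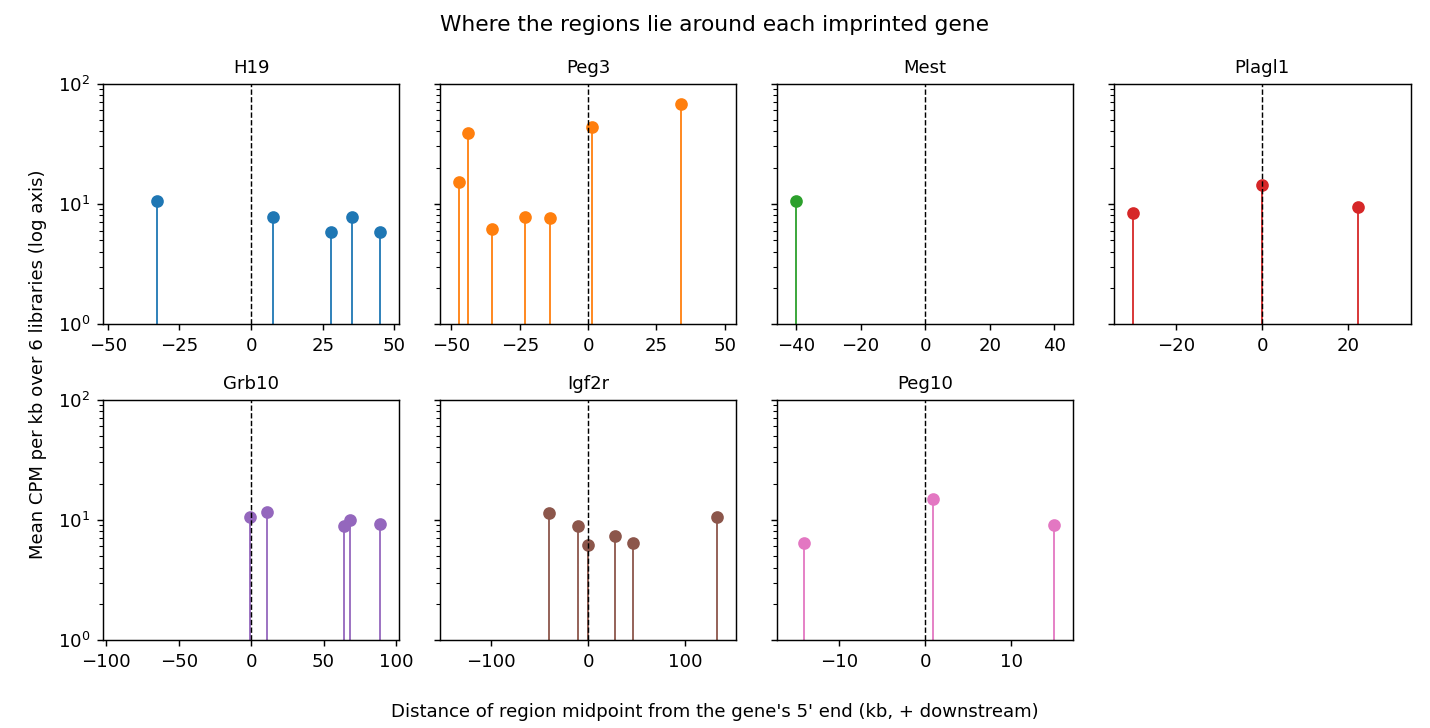
Regions around the member genes, with the distance of each region's midpoint from the 5′ end of the gene in kb on the horizontal axis (positive is downstream) and the mean CPM per kb over the 6 libraries on a logarithmic vertical axis. Peg3 holds the 3 highest points (68.2, 43.7 and 39.1 CPM per kb), and Mest has a single region upstream of its start. The H19 point at -32.8 kb also lies in the window of Igf2.

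The promoters over which the results turn were read from RefSeq (build GRCm38.p6, the same reference as the mm10 named in the submitters' processing notes), each from 250 bases before to 50 bases after a start. They are those of the members with a promoter entry and a region over the start, and that of Zim1. A Mest promoter, which carried no region, is added and does not stand for the other starts without a region. Capitals mark TGCCGC on either strand, a hexamer bound by ZFP57, a zinc finger protein that protects imprinting marks when its site is methylated.
Peg3 promoter, chr7:6730370-6730669, minus strand: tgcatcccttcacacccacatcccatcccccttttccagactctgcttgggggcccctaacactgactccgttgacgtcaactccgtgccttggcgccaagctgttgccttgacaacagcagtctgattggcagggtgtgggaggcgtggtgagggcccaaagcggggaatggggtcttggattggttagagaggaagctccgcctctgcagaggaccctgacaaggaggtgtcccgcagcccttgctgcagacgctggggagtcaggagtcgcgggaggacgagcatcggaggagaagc
Zim1 promoter, chr7:6696383-6696682, minus strand: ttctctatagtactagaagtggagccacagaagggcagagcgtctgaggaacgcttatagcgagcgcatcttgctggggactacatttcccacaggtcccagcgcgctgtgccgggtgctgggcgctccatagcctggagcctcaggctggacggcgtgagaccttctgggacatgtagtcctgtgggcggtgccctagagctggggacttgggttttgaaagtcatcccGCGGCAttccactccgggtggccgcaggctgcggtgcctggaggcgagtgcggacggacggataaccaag
Plagl1 promoter, chr10:13090582-13090881, plus strand: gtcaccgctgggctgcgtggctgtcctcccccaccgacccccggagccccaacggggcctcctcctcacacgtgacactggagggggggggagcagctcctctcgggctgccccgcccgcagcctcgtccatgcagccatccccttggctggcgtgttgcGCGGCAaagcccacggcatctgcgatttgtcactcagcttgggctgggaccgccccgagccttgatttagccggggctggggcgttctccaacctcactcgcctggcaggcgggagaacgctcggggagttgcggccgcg
Grb10 promoter, chr11:12037371-12037670, minus strand: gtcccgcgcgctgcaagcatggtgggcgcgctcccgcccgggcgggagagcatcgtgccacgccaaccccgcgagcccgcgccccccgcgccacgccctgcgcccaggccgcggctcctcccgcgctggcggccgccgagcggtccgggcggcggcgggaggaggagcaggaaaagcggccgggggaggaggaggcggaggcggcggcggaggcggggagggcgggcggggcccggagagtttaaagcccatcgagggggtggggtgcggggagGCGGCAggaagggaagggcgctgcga
Igf2r promoter, chr17:12769657-12769956, minus strand: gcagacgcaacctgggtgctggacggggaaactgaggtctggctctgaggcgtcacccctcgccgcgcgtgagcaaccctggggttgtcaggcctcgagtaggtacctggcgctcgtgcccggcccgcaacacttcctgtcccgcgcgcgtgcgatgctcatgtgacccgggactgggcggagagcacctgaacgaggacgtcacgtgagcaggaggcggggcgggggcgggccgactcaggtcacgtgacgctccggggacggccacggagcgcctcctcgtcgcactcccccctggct
Mest promoter, chr6:30737800-30738099, plus strand: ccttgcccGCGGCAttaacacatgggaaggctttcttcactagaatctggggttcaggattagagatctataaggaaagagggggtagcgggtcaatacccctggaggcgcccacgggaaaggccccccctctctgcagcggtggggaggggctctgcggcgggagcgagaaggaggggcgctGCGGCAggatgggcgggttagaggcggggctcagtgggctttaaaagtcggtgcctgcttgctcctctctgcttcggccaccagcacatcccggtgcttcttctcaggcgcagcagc

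The hexamer occurred 1 time each in the Zim1, Plagl1 and Grb10 promoters, 2 times in this Mest promoter and 0 times in those of Peg3 and Igf2r. The promoters of Cep41, Airn, Mrpl23 and Usp29, also with a region over the start but not shown, held it 0 times. Without a region, the Mest start at chr6:30733256-30733555, the Dlk1 start and the second Grb10 start held it 0 times. Among the Igf2 and Meg3 starts it occurred 1 time each at chr7:142661222-142661521 and chr12:109540746-109541045, and 0 times in the rest. Of all 32851 RefSeq promoters of that length, 11.6% held it, and of those with a region over the start 20.0%. GNGGCAG, a stretch of the motif of the insulator protein CTCF, was found on either strand 1 time each in the Plagl1, Grb10 and Mest promoters shown and 0 times in the Peg3, Zim1 and Igf2r promoters, against 30.7% of all promoters. CpG dinucleotides numbered 13 for Peg3, 20 for Zim1, 26 for Plagl1, 45 for Grb10, 34 for Igf2r and 17 for Mest, where the median was 7 over all promoters and 21 over those with a region over the start. Of the 10 members, all matched a RefSeq gene and 8 the promoter table, which had no entry for Peg10 and H19. These matches describe the letters of the windows alone.

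Igf2, the fetal growth factor of the family, and H19, a maternally expressed non-coding RNA that hosts miR-675, lie next to each other on chromosome 7 and share enhancers downstream of H19. The region between them, chr7:142609802-142611994, lay 32.8 kb upstream of H19 and had 21.7, 25.5 and 26.5 CPM at E14.5 and 23.1, 23.5 and 19.2 at P0, in the order of the replicate numbers. The stages overlapped, with a log2 fold change of -0.17 (SE 0.19, 95% interval -0.58 to 0.24). Downstream of H19 by 7.48 kb lay chr7:142569808-142571521, which the table lists as a FANTOM enhancer and as VISTA element_47, the only VISTA element in the set. It had 12.1, 14.7 and 14.8 CPM at E14.5 and 14.58, 15.6 and 8.60 at P0, with P0 replicate 3 below the other 5 libraries (log2 fold change -0.12, SE 0.25, 95% interval -0.65 to 0.42). Without P0 replicate 3 that log2 fold change was 0.10.

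Farther downstream, the region with the largest fold change of the set lay within Nctc1, a non-coding RNA gene, at chr7:142549934-142550768. Its values were 3.44, 2.28 and 4.67 CPM at E14.5 and 6.04, 7.42 and 5.45 at P0, the lowest level among the regions at H19. All P0 libraries stood above all E14.5 libraries there. The log2 fold change was 0.87 (SE 0.35, 95% interval 0.13 to 1.60) and the adjusted p from edgeR 0.186. Another region, chr7:142542280-142543840, also did not overlap between the stages, in the other direction, with 13.9 ± 0.644 CPM at E14.5 (SD, n = 3) and 11.9, 10.6 and 8.21 at P0 (log2 fold change -0.45, SE 0.23, edgeR adjusted p = 0.311). The 5 regions at H19 therefore differed in sign, and none passed the test.

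Igf2r is the receptor that carries IGF2 to the lysosome, and Grb10 an adaptor protein that dampens signalling by the insulin and IGF receptors. Over the Igf2r start, chr17:12768531-12770654 had 15.4, 10.2 and 14.7 CPM at E14.5 and 13.1, 12.9 and 12.6 at P0. The P0 values lay inside the range of the E14.5 values (log2 fold change -0.06, SE 0.23, 95% interval -0.54 to 0.42). Inside Igf2r, chr17:12740351-12743207 covered the start of Airn, the paternally expressed non-coding RNA that silences Igf2r in cis and whose promoter lies in the imprinting control element of the locus. It had 22.4, 19.2 and 20.8 CPM at E14.5 and 15.3, 24.7 and 22.3 at P0, so that the P0 libraries spread on both sides of the E14.5 libraries (log2 fold change -0.01, SE 0.21, 95% interval -0.46 to 0.45). The region with the most counts and the lowest p in the window of Igf2r, chr17:12635684-12637840, lay 45.6 kb beyond the 3′ end of the gene. This region was nearer to Slc22a2, a gene of the imprinted comparison list, and was counted under Igf2r because members came first. It measured 24.3, 29.1 and 23.7 CPM at E14.5 and 16.3, 26.9 and 16.8 at P0, with P0 replicate 2 among the E14.5 libraries (log2 fold change -0.37, SE 0.22, edgeR adjusted p = 0.402).

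At Grb10 the region over the start, chr11:12036450-12039422, had 33.0, 28.6 and 36.7 CPM at E14.5 and 29.99, 25.4 and 34.7 at P0 (log2 fold change -0.12, SE 0.20, 95% interval -0.54 to 0.30). The second 5′ end of Grb10 lay 0.65 kb from the nearest region, chr11:12025239-12027320, whose values were 21.4, 26.4 and 24.9 CPM at E14.5 and 22.9, 20.6 and 28.7 at P0 (log2 fold change 0.00, SE 0.20, 95% interval -0.43 to 0.42). The stages overlapped in both regions. The lowest p of the whole set belonged to a region inside Grb10, outside the exons and listed as a FANTOM enhancer, chr11:11968689-11969972. It had 8.78, 8.32 and 11.4 CPM at E14.5 (mean 9.51 ± 1.69, SD, n = 3) and 14.4, 13.2 and 19.9 at P0 (15.8 ± 3.59, SD, n = 3). Every P0 library was above every E14.5 library, with a log2 fold change of 0.74 (SE 0.24, 95% interval 0.23 to 1.26), but the edgeR adjusted p of 0.0992 missed the threshold. Under the alternatives it ran from 0.0774 to 0.266. In the authors' deposited table this region had a log2 fold change of 0.79 and an adjusted p-value of 0.115, the lowest of the 30, and was classed as stable like all 30.

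Plagl1 and Peg3 encode zinc finger transcription factors, both expressed from the paternal copy, and the start of each lies in a segment methylated on the maternal copy. The region over the Plagl1 start, chr10:13089980-13091603, also covered that of Hymai and had 19.8, 22.1 and 24.9 CPM at E14.5 and 21.2, 24.1 and 28.2 at P0 (log2 fold change 0.14, SE 0.20, 95% interval -0.28 to 0.56). A second region inside Plagl1, chr10:13112084-13113821, lay 22.1 kb downstream and is classed as a promoter in the table. There E14.5 replicates 1, 2 and 3 had 9.85, 18.0 and 12.3 CPM and the P0 replicates 18.0, 19.98 and 20.4, so that E14.5 replicate 2 reached the level of the lowest P0 library. The log2 fold change was 0.53 (SE 0.23, edgeR adjusted p = 0.233). Without E14.5 replicate 2 it was 0.80 and the region passed, with an edgeR adjusted p of 0.0492, against 0.0492 to 0.567 over all alternatives.

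The window of Peg3 held the 3 regions of the set with the highest CPM per kb, but also low ones. The lowest there had 7.77, 7.68 and 6.19 CPM per kb (36.1st, 34.9th and 15.2nd percentile of all regions). Over the Peg3 start, which lies beside that of Usp29 on the opposite strand, chr7:6727336-6730667 had 155, 119 and 170 CPM at E14.5 (148 ± 26.2, SD, n = 3) and 144, 106 and 181 at P0 (144 ± 37.5, SD, n = 3). The spread inside each stage was larger than the difference between the means (log2 fold change -0.04, SE 0.24, 95% interval -0.55 to 0.47). Per kb of region, the mean of 43.7 CPM was at the 97.6th percentile of all regions, and 39.1 CPM per kb at chr7:6773859-6774564, inside Usp29, at the 96.9th. The region over the start of Zim1, an imprinted neighbour of Peg3 that encodes another zinc finger protein, was higher still, with 68.2 CPM per kb (99.2nd percentile). This region, chr7:6695927-6696919, had 75.7, 72.3 and 86.5 CPM at E14.5 and 57.3, 47.8 and 66.6 at P0. All P0 libraries lay below all E14.5 libraries, with a log2 fold change of -0.45 (SE 0.20, 95% interval -0.88 to -0.02), an unadjusted p of 0.0433 and an adjusted p of 0.248 in edgeR. It was the only one of the 5 regions under an unadjusted p of 0.05 that was lower at P0.

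Peg10 derives from a retrotransposon and is needed for the placenta, and Mest encodes a protein of the hydrolase fold. The region over the Peg10 start, chr6:4746758-4749643, had 47.7, 37.7 and 46.4 CPM at E14.5 and 41.3, 40.6 and 46.4 at P0 (log2 fold change -0.04, SE 0.19, 95% interval -0.44 to 0.37). The stages overlapped at this promoter, which stands head to head with that of Sgce. Inside Sgce, 14.1 kb upstream of the Peg10 start, chr6:4732541-4733865 had 6.05, 9.02 and 5.25 CPM at E14.5 and 10.2, 9.99 and 10.7 at P0. These did not overlap (log2 fold change 0.59, SE 0.27, 95% interval 0.01 to 1.17, edgeR adjusted p = 0.256). The single region in the window of Mest, chr6:30692767-30694296, was the promoter of its neighbour Cep41, 40.0 kb away. Its values were 23.4, 16.99 and 14.0 CPM at E14.5 and 16.8, 9.53 and 15.5 at P0 (log2 fold change -0.37, SE 0.25, edgeR adjusted p = 0.484).

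**Figure D2:**
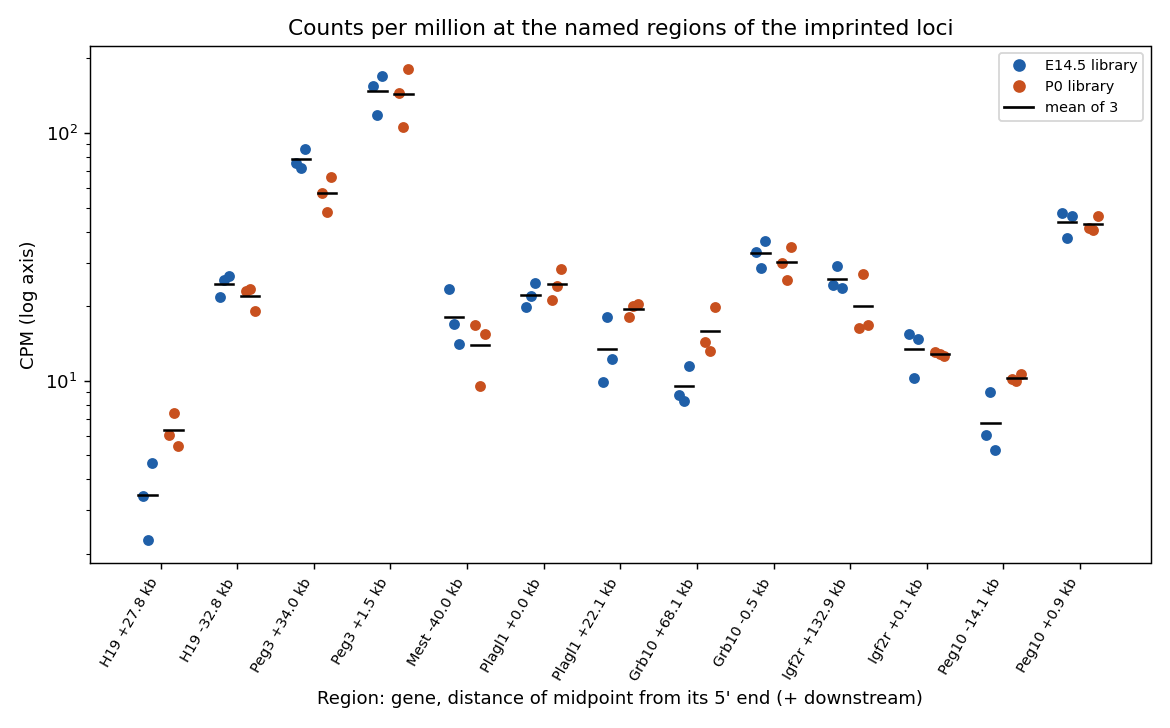
CPM in each library (points, logarithmic axis) and the mean of the 3 libraries of a stage (bars) at the 13 regions that lie over a member's start, carry its most counts or have its lowest p. The regions over the Peg3, Plagl1, Grb10, Igf2r and Peg10 starts overlap between the stages, while those at H19 +27.8 kb, Peg3 +34.0 kb, Grb10 +68.1 kb and Peg10 -14.1 kb do not.

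The 5 regions over member starts thus had log2 fold changes between -0.12 and 0.14, and each 95% interval stayed within -0.55 and 0.56. With scaling to total counts the signs at Peg3, Igf2r and Peg10 turned positive, none of them by more than 0.03. For comparison, 0.851% of the 14097 regions of the promoter class passed the test, so that calls at promoters were rare throughout the table. The 5 regions at an unadjusted p under 0.05 (16.7%, against 18.7% of all regions) all lay away from the member starts, those at H19, Plagl1, Grb10 and Peg10 higher at P0 and that over the Zim1 start near Peg3 lower.

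**Figure D3:**
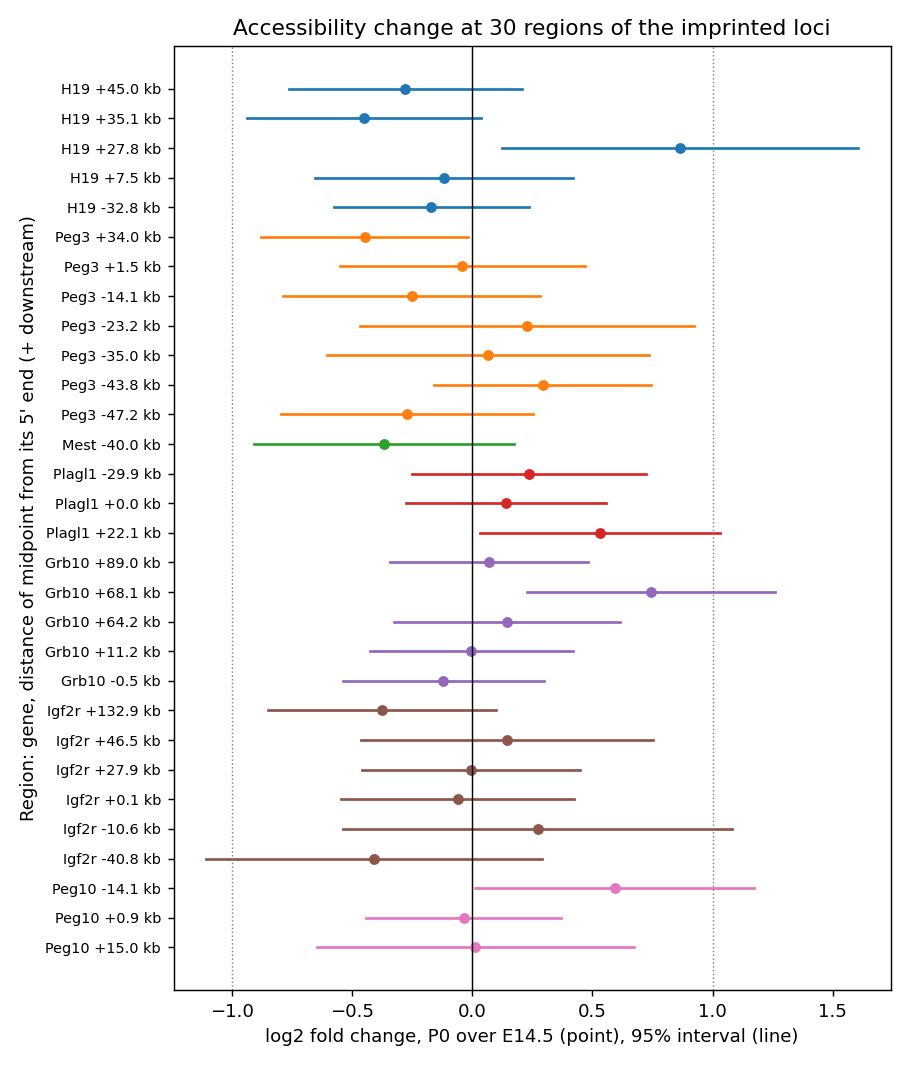
Log2 fold change of P0 over E14.5 (points) with its 95% interval (lines) from edgeR for the 30 regions, named by the distance of their midpoint from the gene's 5′ end. Dotted lines mark a 2-fold change. All points lie between -0.45 and 0.87, and the farthest interval, at H19 +27.8 kb, reaches 1.60.

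By their place relative to genes, which the choice of members used in part, 14 of the 30 regions (46.7%) were of the promoter class, against 32.4% of all regions. In features the choice did not use directly, 8 (26.7%) overlapped a FANTOM enhancer, against 9.65%. This share and those of the motif matches below can go with the class of a region, and they were not computed within the promoter class. Matches for Maz, a zinc finger factor that binds G-rich DNA, were listed in 10 regions (33.3%, against 21.3%), for Sall factors in 8 (26.7%, against 16.8%) and for E2F factors in 6 (20.0%, against 15.2%). Matches for Sox factors were listed in 5 (16.7%, against 13.2%), for forkhead factors in 5 (16.7%, against 21.0%) and for Smad factors in 1 (3.33%, against 9.02%). The regions with E2F matches were those over the starts of Peg3, Plagl1, Grb10, Igf2r and Peg10 and the Airn start. Regions of 1 locus share neighbourhood and base composition, so these shares are given without a test.

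Among 48 other imprinted genes, 36 had 170 further regions, of which 5 (2.94%) passed in edgeR, 2 higher at P0 (1.79% of all regions) and 3 lower (2.94% of all regions). Their median log2 fold change was 0.02. The clearest was a loss in the window of Sfmbt2, a polycomb-related gene, at chr2:10614913-10616335, which lay 20.4 kb beyond the gene. It fell from 18.98, 20.5 and 18.2 CPM at E14.5 to 7.29, 8.17 and 8.53 at P0 (log2 fold change -1.26, SE 0.21, edgeR adjusted p = 0.00449), and passed under every alternative run. A region inside Usp29 and 68.8 kb from its start, beyond the Peg3 window at chr7:6799102-6799635, rose from 3.32, 3.59 and 1.64 CPM to 6.87, 6.66 and 8.37 (log2 fold change 1.35, SE 0.35, edgeR adjusted p = 0.0389). With the replicate number as a block its adjusted p was 0.0739, within 0.0130 to 0.194 over all alternatives. The others were a rise inside Trappc9 (log2 fold change 1.46, SE 0.31) and losses inside Rasgrf1 (-1.17, SE 0.28) and in an exon of Herc3 beside Nap1l5 (-1.23, SE 0.28).

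Among 22 genes of IGF signalling, 21 had 86 regions, and 6 (6.98%, against 4.73% of all regions) passed in edgeR. Of these, 5 were higher at P0 (1.79% of all regions) and 1 lower (2.94% of all regions), with a median log2 fold change of 0.02. The loss was at the promoter of Igf2bp3, an RNA-binding protein of fetal tissues that binds Igf2 mRNA. The region chr6:49213710-49215959 had 30.1, 32.8 and 41.0 CPM at E14.5 (34.6 ± 5.65, SD, n = 3) and 14.58, 8.32 and 15.6 at P0 (12.8 ± 3.92, SD, n = 3). Its highest P0 library lay below its lowest E14.5 library, with a log2 fold change of -1.41 (SE 0.24, 95% interval -1.92 to -0.91, edgeR adjusted p = 0.00449). It passed under every alternative, with adjusted p-values from 1.08e-05 to 0.0443, and the authors' deposited table gave it a log2 fold change of -1.29 and an adjusted p-value of 0.0331. Its promoter is shown because it was the only promoter among the 11 regions called in these lists, and it held 25 CpG dinucleotides and the TGCCGC hexamer 0 times.
Igf2bp3 promoter, chr6:49214905-49215204, minus strand: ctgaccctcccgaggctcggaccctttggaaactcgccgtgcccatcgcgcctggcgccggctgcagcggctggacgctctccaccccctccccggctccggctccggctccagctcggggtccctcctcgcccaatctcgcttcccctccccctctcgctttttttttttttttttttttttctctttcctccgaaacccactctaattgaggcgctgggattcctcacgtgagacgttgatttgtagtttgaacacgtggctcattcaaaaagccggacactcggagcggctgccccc

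The gains lay outside promoters. Inside Igf1, the postnatal growth factor of the family, chr10:87874794-87875483 rose from 2.25, 4.99 and 1.75 CPM at E14.5 to 9.68, 8.93 and 7.26 at P0 (log2 fold change 1.49, SE 0.38, edgeR adjusted p = 0.0348). Irs1 and Irs2 encode the adaptors that carry the signal from the insulin and IGF receptors. Inside Irs1, chr1:82246702-82248627 rose from 14.59, 22.8 and 10.98 CPM to 27.3, 37.8 and 29.0 (log2 fold change 0.95, SE 0.25, edgeR adjusted p = 0.0434). Upstream of Irs2 by 32.7 kb, a region rose by a log2 fold change of 1.26 (SE 0.31), and regions near Pik3ca and Pik3r1, the genes of a catalytic and a regulatory subunit of phosphoinositide 3-kinase, by 0.98 (SE 0.25) and 1.19 (SE 0.31). With the replicate number as a block the regions at Irs2 and Pik3r1 did not pass (edgeR adjusted p 0.0669 and 0.0660), and with limma-voom that at Pik3r1 did not (adjusted p 0.0817). Of the 11 called regions in both lists, 9 lost their call when E14.5 replicate 1, E14.5 replicate 3 or P0 replicate 1 was left out, which left 1 in each list. Without P0 replicate 2 the call was lost for 7.

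**Figure D4:**
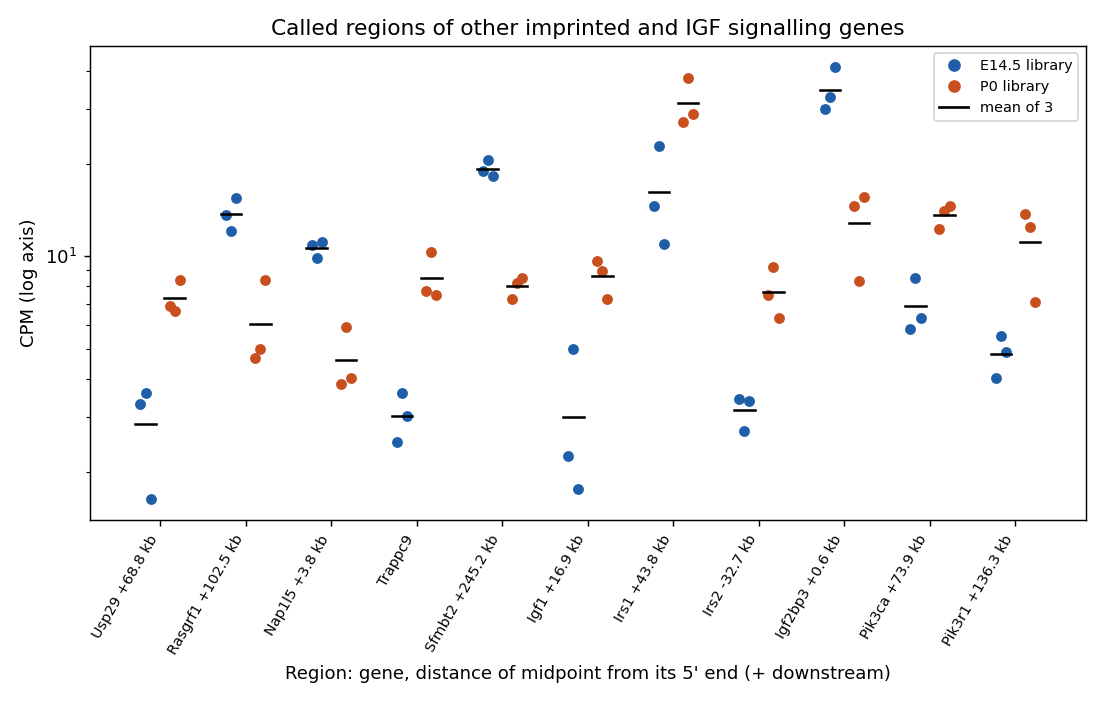
CPM in each library (points, logarithmic axis) and the mean of 3 libraries (bars) at the 11 regions past the threshold, 5 at other imprinted genes and 6 at IGF signalling genes, named by gene and distance of the midpoint from its 5′ end where RefSeq gave one. The stages do not overlap in any of them, against 24.2% of all regions, but the regions were picked by the stage test, so this adds nothing to it. Sfmbt2 and Igf2bp3 are the pair that passed under every alternative.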

How the data were processed

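The authors deposited whole-number counts of reads by region for the 6 libraries, per the file headers, with build mm10 per the submitters' processing notes. The aligner, peak caller, counting rule, Tn5 shift and duplicate handling are not given in the sources used here. The same deposited table held the authors' stage comparison: log2 fold change and mean log2 abundance, t and B score, p-value and adjusted p-value, by a model that is not stated. Of 45489 rows, 1966 repeated a region and were dropped. The library columns were matched by title, and 0 were unmatched.

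Genes, starts and promoter sequences came from RefSeq (GRCm38.p6). A region in the windows of a pair of members was assigned to the member whose body held its midpoint, otherwise to the nearer. All 43523 regions were fitted in edgeR 4.0.16 (R 4.3.3) with TMM scaling, filterByExpr (0 regions removed), the quasi-likelihood F test, stage as the only term and Benjamini-Hochberg adjustment over all regions. On simulated counts, the fit called only a minority of the 2-fold changes put in, together with some unchanged regions. Far fewer regions were changed there than were called in the data. The adjustment is stricter in that setting, so the share recovered does not carry over to these libraries. A region that missed the threshold is still not shown to be unchanged. CPM used TMM-scaled totals, the standard error was the log2 fold change over the square root of F, and 95% intervals used the fit's degrees of freedom.

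The members and lists were chosen with earlier results of these data known. Named regions were those past the threshold and, per member, those over a start, with the highest CPM or with the lowest p. The regions at Airn, at the second Grb10 start, at the VISTA element and at H19 +35.1 kb were named after their values were seen. Alternatives were DESeq2 1.42.0 size factors and Wald test, limma-voom 3.58.1, total-count scaling, a minimum of 10 counts in every library, the replicate number as a block, autosomes alone, each library left out, and other windows. Libraries come from separate litters. Replicate numbers did not pair them: the deviations from the stage means of same-numbered libraries correlated at 0.07, -0.14 and 0.08.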

Additional observations from a re-analysis of the deposited data

How the results depend on the processing

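The count of member regions past the threshold was 0 under each scaling, filter, test and window run, and from 0 to 1 over the 6 fits that left out a library, the 1 being the Plagl1 region at +22.1 kb without E14.5 replicate 2. The median log2 fold change over the members (0.00) ran from -0.0703 to 0.028 over those fits and was 0.05 with total-count scaling. Counts at other imprinted genes (5) were 9 with the DESeq2 Wald test and 3 for gene bodies alone, and from 1 to 9 with a library left out. Those at IGF signalling genes (6) were 9 with the DESeq2 Wald test and 3 for gene bodies alone, and from 1 to 10 with a library left out. Gene bodies alone hold fewer regions (112 and 36), a change in what was counted. Over all regions 339 to 2987 passed with a library left out, against 2059. The cause of the other shifts was not tested.

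Log2 fold changes near 0 changed sign without passing. With total-count scaling they were 0.0247 at the Peg3 start, 0.0516 at Grb10 +11.2 kb, 0.0549 at the Airn start, 0.0045 at the Igf2r start and 0.0276 at the Peg10 start, and on autosomes alone 0.0013 at Grb10 +11.2 kb. With a library left out they ran from -0.27 to 0.0997 at the VISTA element near H19, -0.255 to 0.1378 at the Peg3 start, -0.1694 to 0.0944 at Grb10 +11.2 kb, -0.1405 to 0.155 at the Airn start, -0.2391 to 0.0495 at the Igf2r start and -0.147 to 0.0284 at the Peg10 start.

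As a check of pairing, the replicate number as a block left the counts at 0, 5 and 6, with 1834 regions called in all. Under the block the regions at Usp29, Irs2 and Pik3r1 lost their call (adjusted p 0.0739, 0.0669 and 0.0660), while 1 region at Kcnq1 and 2 at Pappa gained one, so that 4 of the 5 and 4 of the 6 calls were shared. Not every library correlated best with its own number, and the numbers are not treated as pairs. The regions with the fewest counts have the widest intervals.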

Other observations

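The deposited table also lists predicted target genes for many regions, a column that enters no comparison here. For the 17 member regions with such genes, 184 pairs of region and gene matched a RefSeq symbol and 0 of these genes lay on the chromosome of the region. Over all regions, 998 of 183214 matched pairs (0.545%) lay on the same chromosome. The listed targets were therefore not used to assign any region to a gene.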
